A study of Mus musculus with 4 samples.

Results

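The genes described here are the orphan-type G protein-coupled receptor genes of the array: every gene whose symbol is Gpr followed by digits, or Gprc5 or Gprc6 followed by a letter, read by a probe set that is annotated to a single gene symbol, with Gpr174, Gpr34 and Gpr183 left out. The rule found 67 of the 19938 genes with such a probe set. Expression was measured with GeneChip whole-transcript arrays in plasmacytoid dendritic cells (pDCs) sorted as mature cells from collagenase-digested mouse spleens at steady state, in 2 biological replicates of wild-type (WT) mice and 2 of Flt3 knockout (Flt3 KO) mice. No further allele or treatment is labelled in either group, and the sources used here do not give the strain, the age, the part of Flt3 that the allele lacks or the number of animals behind a replicate. The p-values therefore measure the spread between these samples. The labels call them biological replicates but do not say whether this is a spread between single mice. Flt3 is the gene of a receptor tyrosine kinase that binds FLT3 ligand, a dendritic cell growth factor, and the study set pDC gene expression with it against expression without it.

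G protein-coupled receptors cross the membrane repeatedly and hand an outside signal to a G protein, whose alpha subunit and beta-gamma pair then act on cyclic AMP (cAMP) or phospholipase C; receptor kinases and arrestins end the signal. A Gpr symbol was given to receptors that had no known ligand when they were named. Some have since been paired with protons, lipids or metabolites, and some members turned out to be membrane proteins of the Golgi or lysosome, so the symbol marks a naming history and not a single function. Lymphocytes and myeloid cells are known to carry several of them, among them the proton sensor Gpr65 and the lipid receptor Gpr18.

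The arrays matched their labels. The WT arrays had Flt3 at a log2 intensity of 10.71 and 10.77, the knockout arrays at 8.46 and 8.61. Of 15 listed pDC genes, 12 were measured and all 12 lay above 5.89, the median of all genes. In Flt3 KO 7 of them fell (Irf8, Tlr7, Ccr9, Ly6d, Spib, Irf7 and Cox6a2), Irf7 only at the threshold (limma adjusted p 0.05). Siglech, Bst2, Tcf4, Tlr9 and Pacsin1 did not pass, and their differences were negative too. Of 20 listed monocyte and macrophage markers 18 were measured, and 5 rose (Lyz2, Cd14, Ccr2, Cx3cr1 and Fn1) while none fell. Their summed linear intensity was 4861 to 5254 in the WT arrays, 5932 in Flt3 KO replicate 1 and 7657 in Flt3 KO replicate 2, and 2 of the 18, Fcgr1 and Ms4a7, were not above the median. Among markers of conventional dendritic cells, B, T and NK cells, neutrophils and plasma cells, the plasma cell gene Mzb1 fell and no other passed. In such bulk samples fewer cells of a type and less RNA per cell cannot be told apart.

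Of the 67 receptor genes, 25 lay above the array median, that is, their mean log2 intensity over the 4 arrays exceeded 5.89. This is a yardstick for dim probe sets and not a detection call, and levels of different probe sets are not compared because probes bind with different strength. Just inside the limit were Gpr4 (5.95), Gpr160 (5.996) and Gpr20 (6.11), and just outside it Gpr3 (5.87), Gpr19 (5.81) and Gpr6 (5.70). When a gene had to exceed the median on each of the 4 arrays, 23 remained. Gene identifiers placed all 67 members in RefSeq's table for GRCm38.p6, which was used for names, neighbours and overlaps only.

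**Figure D1:**
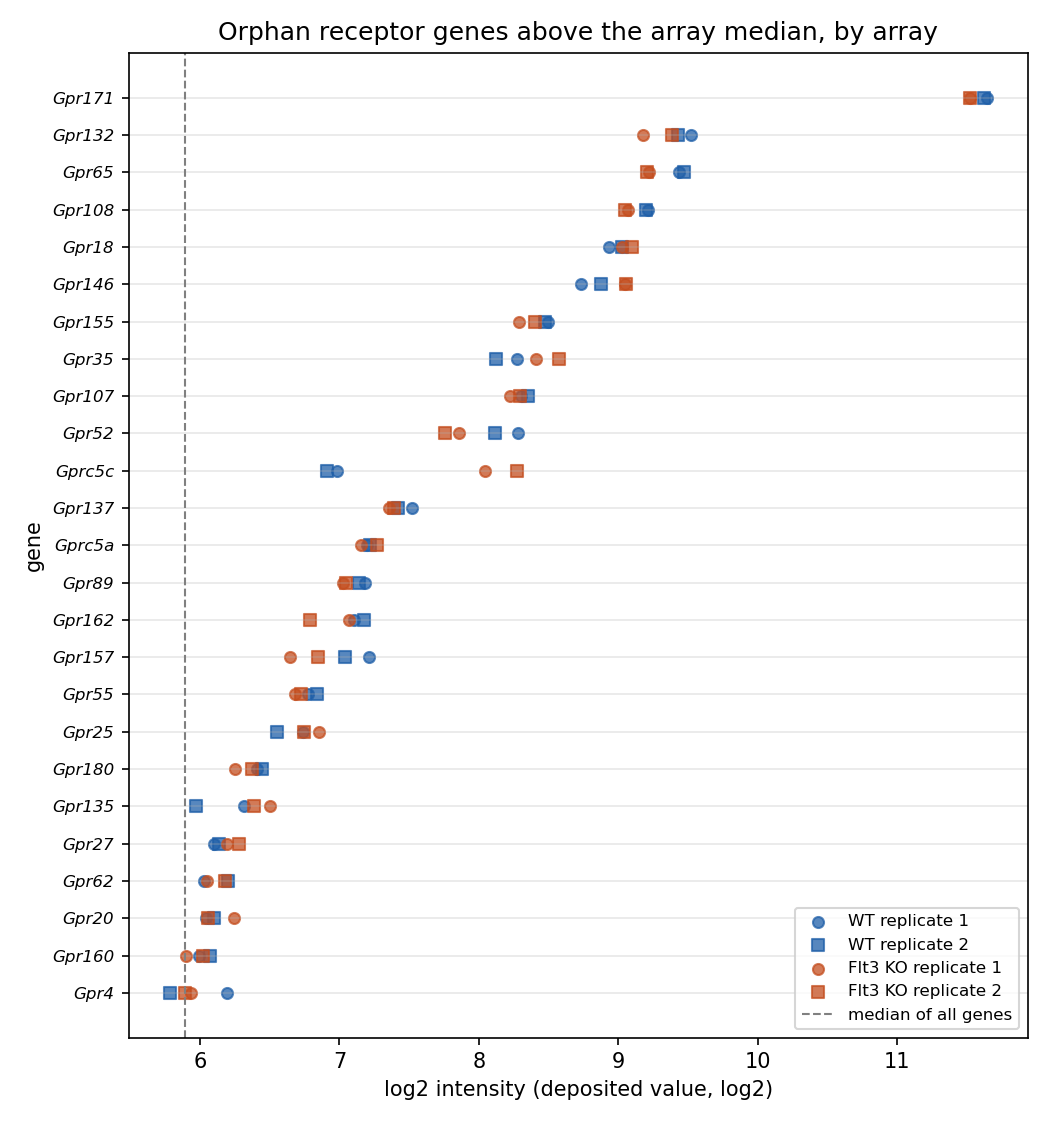
Log2 intensity (x axis) of the 25 orphan receptor genes above the array median (y axis, ordered by mean for layout), with a point for each array; WT is blue, Flt3 KO orange, circles are replicate 1 and squares replicate 2, and the dashed line is the median of all genes at 5.89. Gprc5c is the gene whose 2 genotypes stand well apart; the mean differences of the others are between −0.39 and 0.30.

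Gprc5c was the only member to pass the test between genotypes, and it rose. It encodes a class C receptor of the retinoic acid-inducible group and is known as a marker of dormant haematopoietic stem cells. Its log2 intensity in WT was 6.98 (replicate 1) and 6.91 (replicate 2), and in Flt3 KO it was 8.04 and 8.28, so the lower Flt3 KO array exceeded the higher WT array by far more than the replicates of a genotype differed. The means were 6.95 ± 0.05 in WT and 8.16 ± 0.17 in Flt3 KO (SD, n = 2 each), a log2 difference of 1.21 (SE 0.094, 95% interval 0.99 to 1.43) or 2.32-fold, with a limma adjusted p of 0.0037 over all 19938 genes.

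That is 1 of 67 members past the threshold of an adjusted p under 0.05, 1 higher and 0 lower. Over all genes 2.39% passed, 1.08% as higher and 1.31% as lower in Flt3 KO (215 and 261 genes, or 217 and 452 with each array centred on its median and 293 and 259 under quantile normalization), so the share of members called is near the background. Among genes above the array median 4.34% passed, against 1 of the 25 members there. With 2 samples against 2, the smallest two-sided p of an exact permutation test is 0.3333, so the call depends on limma's pooling of variance over genes. With an array left out the Gprc5c difference stayed between 1.10 and 1.33. Such a fit leaves 1 array in a genotype, so it could not test whether the Gprc5c call holds.

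A second, dimmer probe set of Gprc5c gave a log2 intensity of 6.63 and 6.81 on the WT arrays and of 7.58 and 7.83 on the knockout arrays. Both Flt3 KO arrays were again above both WT arrays, with a difference of 0.99 (SE 0.11, adjusted p = 0.026 when limma tested all 30177 probe sets together). Gprc5c was the only member with more than 1 single-symbol probe set. In both probe sets Flt3 KO replicate 2 was the higher array of its genotype, as it was for the summed monocyte and macrophage markers given above, whose part in the Gprc5c difference was not tested. Without Flt3 KO replicate 2 the Gprc5c difference was 1.10.

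On its chromosome, 11, Gprc5c stands between another member, Gpr142, and the Cd300 cluster of immune receptor genes. Gpr142, a receptor known from pancreatic islets, lay below the median and had a difference of −0.15 (adjusted p = 0.62). The 5 nearest measured genes on each side were looked at after the Gprc5c value had been seen. On the side of Gpr142 none passed, with differences from −0.15 to 0.13. On the other side the next gene, Cd300a, which encodes an inhibitory receptor of leukocytes, rose by 0.64 (adjusted p = 0.015), and Cd300c fell by 0.33 (adjusted p = 0.043), while Cd300lb, Cd300ld and Cd300c2 did not pass (−0.023 to 0.14). The Cd300a and Cd300c calls were lost without the intensity trend (limma adjusted p 0.066 and 0.18). That of Cd300c was also lost with all probe sets tested together (0.091). With any 1 array left out the differences were 0.53 to 0.75 for Cd300a and −0.41 to −0.25 for Cd300c. Such a fit leaves 1 array in a genotype, so it could not test whether these calls hold.

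**Figure D2:**
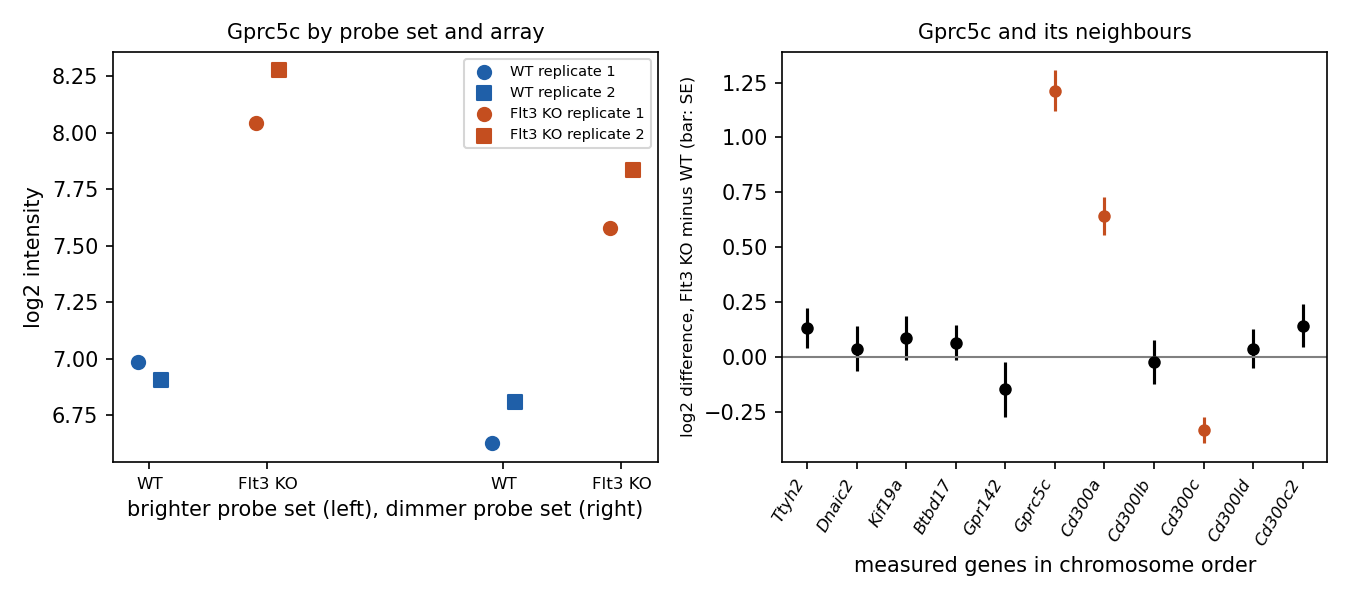
Left, log2 intensity of Gprc5c on each array in its brighter and its dimmer probe set, with WT in blue and Flt3 KO in orange. Right, log2 difference (Flt3 KO minus WT, bars are limma SE) of Gprc5c and of the 5 measured genes on each side in chromosome order, orange where the adjusted p was under 0.05; Gprc5c (1.21) and Cd300a (0.64) are above 0 and Cd300c (−0.33) below it.

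No other class C member passed, nor had an unadjusted limma p under 0.05. Gprc5a, the related gene RAIG1 known from lung epithelium, was above the median with 7.20 and 7.22 in WT against 7.15 and 7.27 in Flt3 KO. Its Flt3 KO values enclosed the WT values, and the difference was 0.0061 with a 95% interval of −0.18 to 0.19, turning to −0.032 when each array was centred on its median. Gprc5b (−0.13), Gprc5d (−0.074), Gprc6a (0.14), Gpr158 (−0.14) and Gpr179 (0.12) lay below the median and did not pass. Whether Gprc5c differed from its relatives in its response was not tested.

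The 3 proton sensors all had negative differences, and none passed. An unadjusted limma p under 0.05 was found for 2, beside 25.5% of all genes above the median. Gpr65, which raises cAMP in leukocytes when the surroundings turn acid, was at 9.43 and 9.47 on the WT arrays and at 9.22 and 9.21 on the Flt3 KO arrays. The genotypes did not overlap, and the gap between them was several times that between replicates; the difference was −0.24 (SE 0.054, 95% interval −0.37 to −0.11) with a limma adjusted p of 0.081. It passed with each array centred on its median (limma adjusted p 0.045) and when only genes above the median were tested (0.042). In these settings the count over all genes also rose, from 476 to 669 and 724. Gpr65 did not pass under quantile normalization (0.115), without the intensity trend (0.21) or with all probe sets tested together (0.14). Gpr132, a leukocyte receptor of oxidised fatty acids, had WT values of 9.52 and 9.43 and Flt3 KO values of 9.18 and 9.39. Here the nearest WT and Flt3 KO arrays were closer together than the Flt3 KO replicates, and the difference of −0.20 had an adjusted p of 0.27. Gpr4, known from endothelium, overlapped between genotypes (−0.073, 95% interval −0.39 to 0.25).

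Receptors of lipids and metabolites had 3 of 6 members above the median. None passed, and 1 had an unadjusted limma p under 0.05, beside 17.1% of all genes. Gpr35, which responds to tryptophan metabolites and is known from gut and leukocytes, read 8.27 and 8.12 in WT, against 8.41 and 8.57 in Flt3 KO. Both Flt3 KO arrays were the higher ones, but the nearest WT and Flt3 KO arrays were closer together than the replicates of either genotype, and the difference was 0.29 (SE 0.084, adjusted p = 0.14). Gpr18, found on intraepithelial lymphocytes and linked to a resolvin, was at 8.93 and 9.02 on the WT arrays and at 9.02 and 9.10 on the Flt3 KO arrays (0.082, 95% interval −0.067 to 0.23). Gpr55, a receptor of lysophosphatidylinositol, had a difference of −0.10 (95% interval −0.29 to 0.079). The medium-chain fatty acid receptor Gpr84 (0.18), Gpr119 (0.062) and Gpr17 (0.089) lay below the median.

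Among receptors of leukocytes and relatives of chemoattractant receptors, 3 of 9 lay above the median. None of the 9 passed, and 1 had an unadjusted limma p under 0.05, beside 17.1% of all genes. Gpr171, a receptor of the peptide BigLEN that is known from T cells, had WT values of 11.64 and 11.62 and Flt3 KO values of 11.52 and 11.52. Its replicates agreed closely, and the genotypes did not overlap, yet the difference was small, −0.11 (SE 0.040, 95% interval −0.20 to −0.014, adjusted p = 0.24). Gpr25, a receptor of lymphocytes, read 6.74 and 6.56 in WT, against 6.85 and 6.74 in Flt3 KO, a difference of 0.15 that did not pass (adjusted p = 0.47), and Gpr160 had −0.073 (adjusted p = 0.75). Gpr1, Gpr15, Gpr33, Gpr82, Gpr141 and Gpr182 lay below the median, with differences from −0.090 for Gpr1 to 0.21 for Gpr141.

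Members listed here as proteins of intracellular membranes had small negative differences throughout. None of the 7 passed the test, and 1 had an unadjusted limma p under 0.05, beside 17.1% of all genes. All 6 of those above the median had both Flt3 KO values below both WT values, as had 37% of all genes above the median (3692 of 9969). Gpr108, a Golgi protein linked to Toll-like receptor signalling and to virus entry, was at 9.21 and 9.20 on the WT arrays and at 9.07 and 9.05 on the Flt3 KO arrays (−0.15, SE 0.055, adjusted p = 0.24). The lysosomal cholesterol sensor gene Gpr155 had WT values of 8.49 and 8.47 and Flt3 KO values of 8.29 and 8.40 (−0.14, adjusted p = 0.35). Gpr89, which encodes the Golgi pH regulator, read 7.18 and 7.14 in WT, against 7.03 and 7.05 in Flt3 KO (−0.13, adjusted p = 0.42). Gpr180 had a difference of −0.11, the lysosomal gene Gpr137 −0.095 and the Golgi trafficking gene Gpr107 −0.068. Centring each array on its median lowers every difference by the same amount, so negative signs cannot turn (−0.19 to −0.11), and under quantile normalization the 6 lay between −0.12 and −0.021. The median of these 6 was −0.12, beside −0.037 over all 9969 genes above the array median, of which 39.5% had a positive difference. That background moved with the scaling. It was −0.075 (29.5% positive) with arrays centred and −0.0096 (47.3% positive) under quantile normalization. Gpr143, the melanosome receptor gene, was below the median (−0.062).

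Of the remaining receptors with assigned families or sites, Gpr27 alone lay above the median. This member of the SREB family of brain receptors had 6.10 and 6.14 in WT against 6.20 and 6.28 in Flt3 KO (0.12, adjusted p = 0.54). Its relatives Gpr85 and Gpr173 had differences of −0.18 and 0.079; the Gpr85 values, 5.18 and 5.46 in WT against 5.05 and 5.25 in Flt3 KO, overlapped. The receptors Gpr3, Gpr6 and Gpr12, which raise cAMP without a known ligand, were all below the median. Gpr6 was at 5.52 and 5.63 on the WT arrays and at 5.92 and 5.73 on the Flt3 KO arrays (0.25, adjusted p = 0.28), and Gpr12 had a difference of −0.17 (adjusted p = 0.50). Gpr12 lies on the chromosome of Flt3, 12 protein-coding genes away. Gpr19 had WT values of 6.01 and 5.77 and Flt3 KO values of 5.70 and 5.76 (−0.16, adjusted p = 0.50), and Gpr161, a cilium receptor of hedgehog signalling, and Gpr75 had differences of 0.10 and 0.016.

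Of 26 other orphan receptors 7 lay above the median. None of the 26 passed, and 5 had an unadjusted limma p under 0.05, beside 17.1% of all genes. Gpr52, known as a cAMP-raising receptor of the striatum, came nearest to the threshold. It read 8.28 and 8.11 in WT, against 7.86 and 7.75 in Flt3 KO, so both Flt3 KO arrays were the lower ones, with a difference of −0.39 (SE 0.081, 95% interval −0.58 to −0.20) and a limma adjusted p of 0.063. It passed with each array centred on its median (limma adjusted p 0.030) and with robust variance (0.044). When only genes above the median were tested it passed too (0.031). In these 3 settings the count over all genes also rose, from 476 to 669, 598 and 724. It did not pass under quantile normalization (0.076), without the intensity trend (0.14) or with all probe sets tested together (0.12). Gpr52 lies inside the gene Rabgap1l, whose own probe set had 9.89 in WT and 9.71 in Flt3 KO (difference −0.18, adjusted p = 0.14). Signal from the host transcript cannot be told apart from Gpr52 transcript here.

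Gpr157 was at 7.21 and 7.04 on the WT arrays and at 6.65 and 6.85 on the Flt3 KO arrays. The Flt3 KO arrays were lower without overlap, but the replicates were spread (−0.38, SE 0.10, adjusted p = 0.12). Gpr146, which regulates lipoprotein secretion by the liver, had WT values of 8.73 and 8.87 and Flt3 KO values of 9.05 and 9.05 (0.25, SE 0.067, adjusted p = 0.12). Its Flt3 KO replicates were nearly equal and above both WT arrays. Gpr135 read 6.32 and 5.97 in WT, against 6.50 and 6.39 in Flt3 KO (0.30, adjusted p = 0.29), with a gap between the WT replicates wider than the difference. Gpr162 was at 7.10 and 7.18 on the WT arrays and at 7.07 and 6.79 on the Flt3 KO arrays (−0.21, adjusted p = 0.36). Gpr20 (0.080) and Gpr62 (−0.0002) overlapped between genotypes.

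The other 19 of these lay below the median: Gpr21, Gpr22, Gpr26, Gpr37, Gpr39, Gpr45, Gpr50, Gpr61, Gpr63, Gpr83, Gpr101, Gpr139, Gpr142, Gpr149, Gpr151, Gpr152, Gpr153, Gpr165 and Gpr176. Most are known from brain or endocrine tissue. Over all 42 members below the median the differences ran from −0.23 for Gpr83 to 0.40 for Gpr61. None passed, and 2, Gpr6 and Gpr61, had an unadjusted limma p under 0.05, beside 859 of 9969 genes below the median. Gpr61 had WT values of 3.86 and 3.79 and Flt3 KO values of 4.25 and 4.19 (SE 0.094, adjusted p = 0.089), far below the array median in both genotypes, where signal over background is low, so no fold is given.

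**Figure D3:**
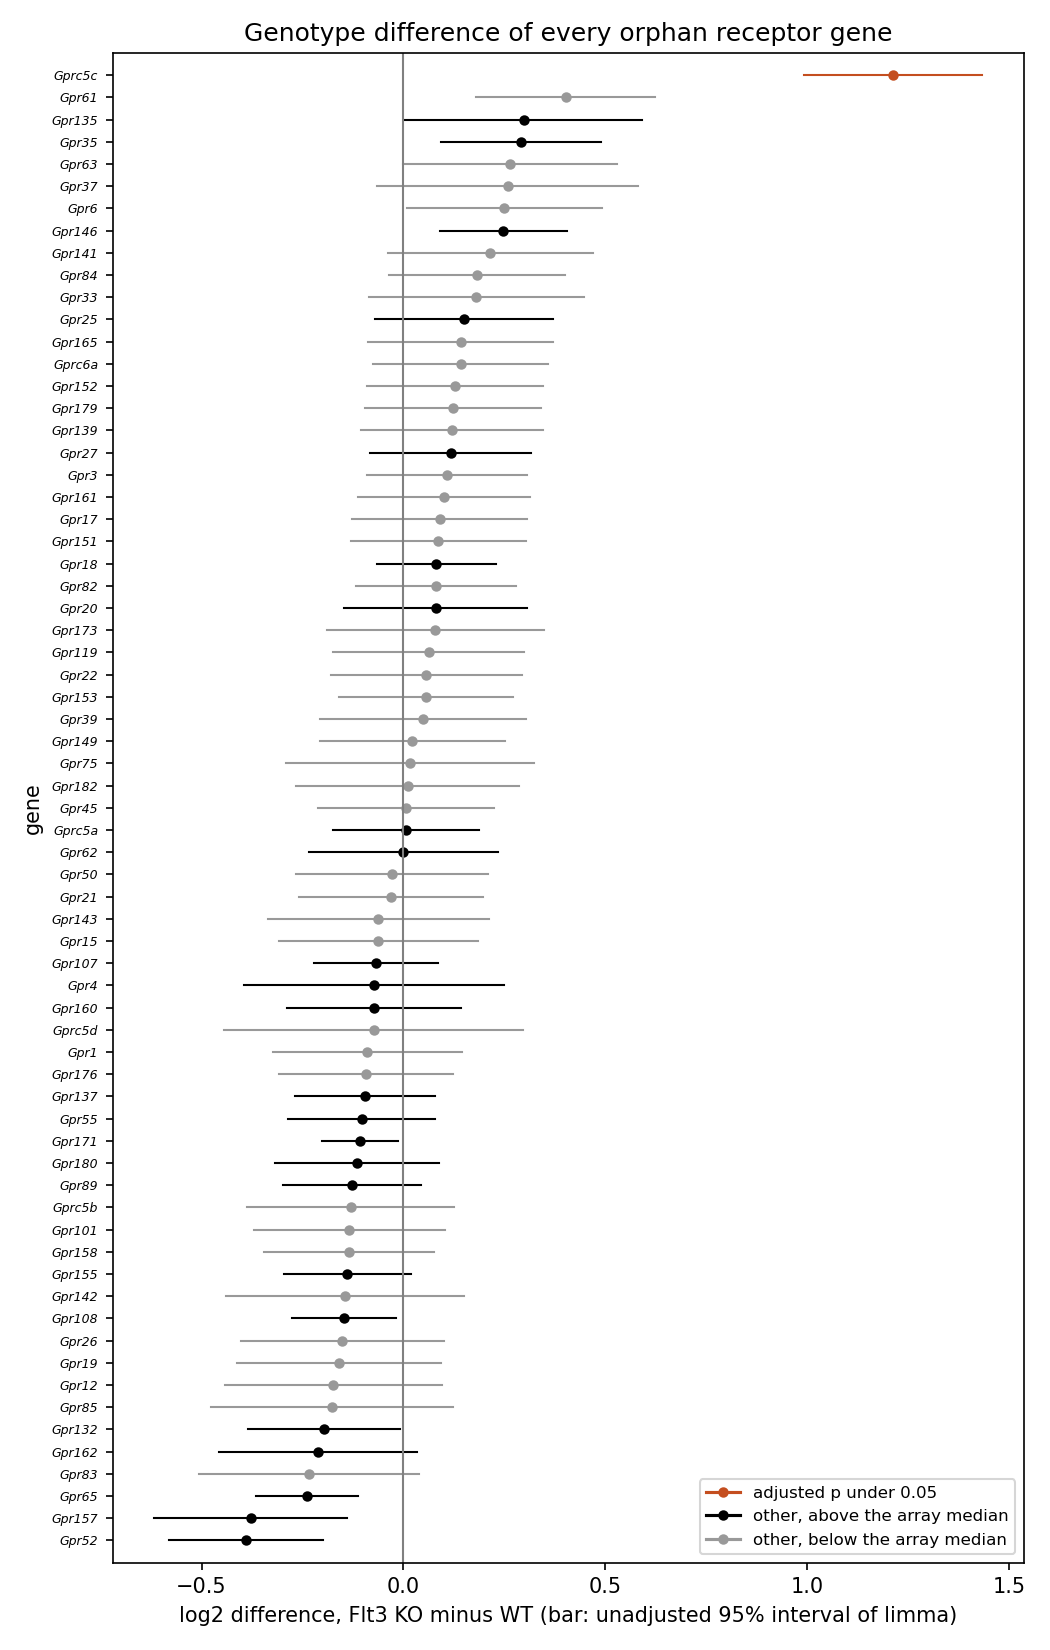
Log2 difference (x axis, Flt3 KO minus WT) of all 67 orphan receptor genes in order of size, with unadjusted 95% intervals from limma; orange marks an adjusted p under 0.05, black other genes above the array median and grey those below it. Gprc5c (1.21) is the only orange point, and the other 66 lie between −0.39 and 0.40.

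Outside Gprc5c the differences were small. For each of the other 66 members the unadjusted 95% interval lay between −1 and 1, and for 59 of them between −0.5 and 0.5, so a 2-fold change lay outside these intervals while smaller changes were often inside. At an unadjusted p under 0.05 there were 12 members, 6 higher and 6 lower, beside 17.1% of all genes, and above the array median 10 of 25 beside 25.5% of genes. The 2 genotypes did not overlap for 43 of 67 members, 22 higher and 21 lower, beside 47.2% of all genes, and above the median for 19 of 25 beside 56.3%. The median difference of the 25 was −0.073, beside −0.037 over all genes above the median, and 9 were positive (36%) beside 39.5%. With arrays centred the median of the 25 was −0.11 beside −0.075, and under quantile normalization −0.086 beside −0.0096. Below the median 26 of 42 were positive, beside 59.8% of genes there.

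**Figure D4:**
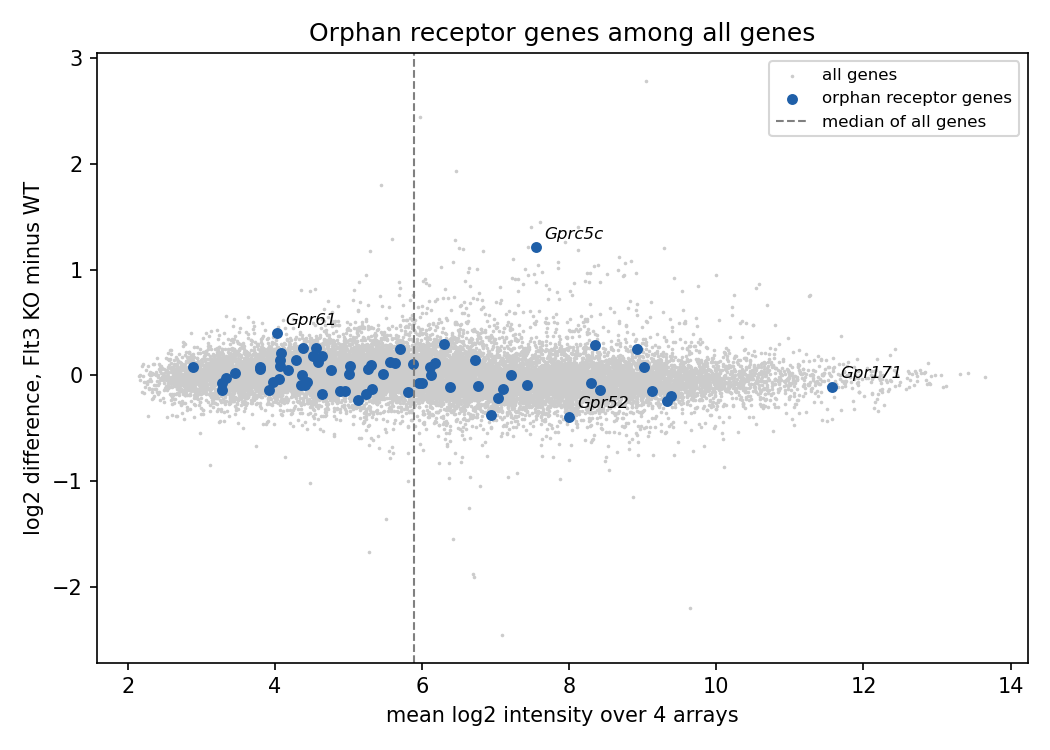
Log2 difference between genotypes (y axis, Flt3 KO minus WT) against mean log2 intensity over the 4 arrays (x axis) for all 19938 genes in grey and the 67 orphan receptor genes in blue; the dashed line is the median of all genes. Gprc5c (1.21) stands above the cloud of genes of its brightness, and the other blue points lie within it.

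Many of these receptor genes share ground with other genes, which matters for what a probe set reads. The RefSeq table placed 37 of the 67 in overlap with another gene, and 10 of the 25 above the median in overlap with a protein-coding gene. Besides Gpr52 in Rabgap1l, Gpr171 lies inside Med12l, Gpr18 inside Ubac2, Gpr146 inside 3110082I17Rik and Gpr108 within the span of Trip10. Med12l had log2 means of 5.60 and 5.52, below the array median. Trip10 had a positive difference (0.31, adjusted p = 0.13) where Gpr108 had a negative one. Ubac2 had a negative difference (−0.12, log2 means of 8.79 in WT and 8.67 in Flt3 KO) where Gpr18 had a positive one. Gpr27 overlaps Eif4e3, which had log2 means of 7.78 in WT and 8.03 in Flt3 KO. The Eif4e3 difference of 0.25 (limma adjusted p 0.11) had the sign of that of Gpr27. Whether shared signal adds to these values was not tested. Gpr18 also adjoins the left-out Gpr183, and Gprc5a adjoins Gprc5d.

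Symbols with a suffix after the digits were not counted as members, and none of the 6 passed. Gpr137b, a lysosomal protein gene, and its near copy Gpr137b-ps, whose probes may share signal, had differences of −0.0065 and 0.093. The 12-HETE receptor gene Gpr31b had −0.28 (adjusted p = 0.13), and Gpr37l1, Gpr137c and Gpr141b lay below the median.

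The genes that receptors signal through were compared from a list of G beta and gamma subunits, receptor kinases and arrestins, cAMP enzymes, phospholipase and other effectors, and sorting proteins. Of 74 measured partner genes 1 rose, 1 fell and the rest did not pass, near the 2.39% of all genes. Plcb3, a phospholipase C that G proteins switch on, read 7.59 and 7.60 in WT, against 7.97 and 8.05 in Flt3 KO, without overlap; it rose by 0.42 (SE 0.069, adjusted p = 0.031). Gnb4, a G protein beta subunit gene, was at 9.12 and 8.92 on the WT arrays and at 8.58 and 8.58 on the Flt3 KO arrays and fell by 0.45 (SE 0.077, adjusted p = 0.036). Both calls were lost without the intensity trend (limma adjusted p 0.090 and 0.12) and with all probe sets tested together (0.067 and 0.077). With any 1 array left out the differences were 0.37 to 0.46 for Plcb3 and −0.55 to −0.35 for Gnb4. Such a fit leaves 1 array in a genotype, so it could not test whether these calls hold.

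The lowest p-values of the other partner classes did not reach the threshold in the main limma fit. Prkar2a, a regulatory subunit of the cAMP-dependent kinase, had a difference of 0.48 (adjusted p = 0.053) from 4.94 and 5.42, below the array median in both genotypes. The receptor kinase gene Grk3 had 0.37 (adjusted p = 0.080) and Ric8a, a chaperone of G alpha subunits, 0.25 (adjusted p = 0.083). Prkar2a passed with arrays centred (limma adjusted p 0.048) and with robust variance (0.040). Grk3 and Ric8a passed under quantile normalization (0.031 and 0.042) and with only genes above the median tested (0.040 and 0.043). In these settings the count over all genes also rose. Prkar2a, Grk3 and Ric8a did not pass without the intensity trend (0.075, 0.16 and 0.20) or with all probe sets tested together (0.095, 0.14 and 0.14). A positive difference was found for 16 of 22 cAMP enzyme genes, 10 of 16 G beta and gamma genes, 5 of 9 phospholipase and other effector genes, 8 of 16 sorting protein genes and 4 of 11 kinase and arrestin genes, beside 49.6% of all genes. The median of the 74 partner genes was 0.023, beside −0.0010 over all genes.

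**Figure D5:**
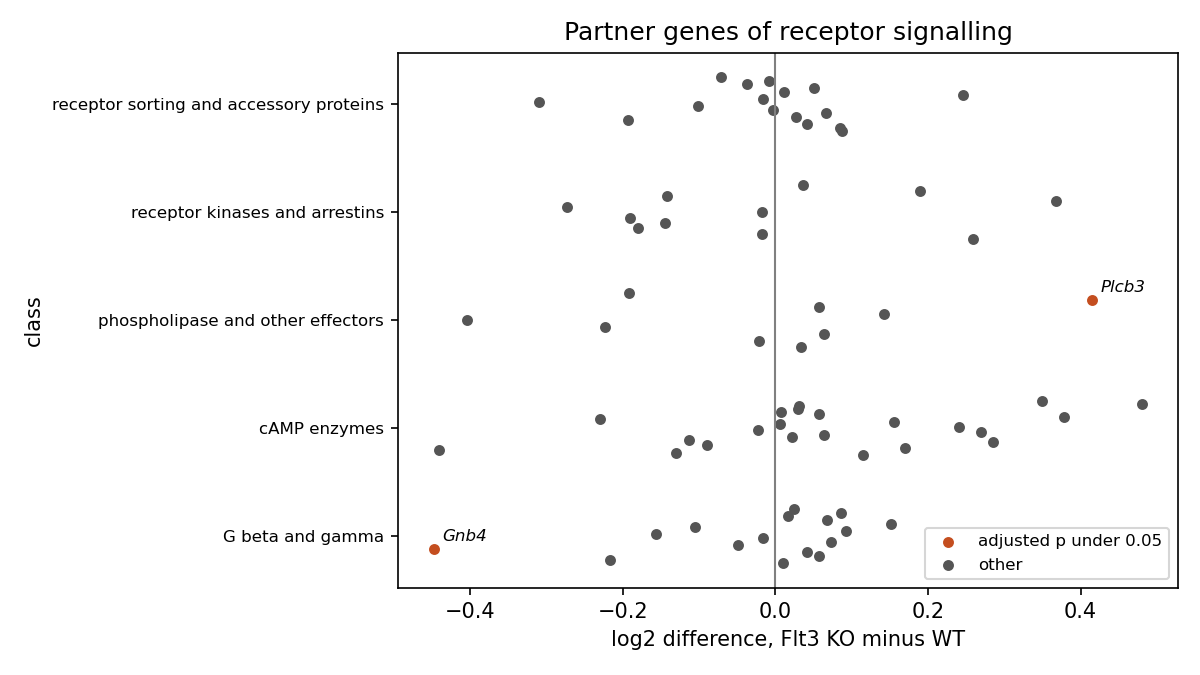
Log2 difference (x axis, Flt3 KO minus WT) of the 74 measured partner genes of receptor signalling, by class (y axis; height within a class only separates the points), orange where the adjusted p was under 0.05. Plcb3 (0.42) and Gnb4 (−0.45) are the 2 orange points, and every class has genes on both sides of 0.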

How the data were processed

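Total RNA was amplified with an Ambion kit, labelled with biotin and hybridised to 1-colour GeneChip arrays, 1 array per sample, per the labels' protocols. The deposited values are processed intensity on a linear scale, made by the authors for 30177 probe sets; the sources used here do not give their background correction, summarisation, scaling or genome build. For arrays their number limits the precision. The platform annotation gave 21789 probe sets a single gene symbol, 1621 several and 6767 none. The single-symbol probe set with the highest mean was kept for each of 19938 genes.

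Values were taken to log2 with no added constant and no filter on dim genes. The test was limma (version 3.58.1, R 4.3.3; lmFit, then eBayes with the trend option) of Flt3 KO minus WT, with Benjamini-Hochberg adjustment over all genes and a threshold of 0.05. SE and intervals are limma's moderated ones. Alternatives were other scaling, variance models, added constants, filters and probe set rules, arrays left out and a replicate block.

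The members, the partner list and the marker lists were chosen with earlier results of these data known. Values on every array are given for members past the threshold, for the 14 further members with the lowest p above the array median and for the lowest p in each role group; those of Gprc5a, Gpr18 and Gpr61 were added after they had been seen. The remaining members are given by difference or range. Partner genes named are those past the threshold, with values on every array, and the lowest p of each other class. No outlier test was run, since each genotype has 2 arrays.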

Additional observations from a re-analysis of the deposited data

How the results depend on the processing

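The 18 receptor genes picked by the naming rule kept their sign under each alternative that gave a value. Besides Gprc5c, of these 18 Gpr52 and Gpr65 passed under some of them and the other 15 under none, which says nothing in the fits without a WT replicate, where no gene passed. The receptor count of 1 became 3 with arrays centred, 2 with robust variance and 3 with genes above the median only, and was 0 to 1 with an array left out (7 to 10 at an unadjusted limma p under 0.05). Over all genes the count of 476 became 108 without the intensity trend, 724 with genes above the median only, 219 with all probe sets tested together, and 0 to 54 with an array left out (0 without either WT replicate, where 2068 and 2650 genes had an unadjusted limma p under 0.05; 54 when the first Flt3 KO array was left out and 2 when the other was). The partner count of 2 became 5 under quantile normalization, 4 with robust variance, 5 with genes above the median only, 0 without the trend (18 at an unadjusted limma p under 0.05), 0 with all probe sets tested (19) and 0 with any array left out (12 to 17). The median of the 25 receptors, −0.073, became −0.11 with arrays centred and lay between −0.11 and −0.052 with an array left out. The labels do not say whether same-numbered samples were handled together. Same-numbered deviations correlated at −0.017 over genes, which cannot decide this with 2 replicates per genotype. With the replicate block 375 genes passed in all, 1 receptor and 1 partner gene; the adjusted limma p of Plcb3 and of Cd300c was 0.051, while Gprc5c, Gnb4 and Cd300a passed. Of 13 marker genes that passed, 12 did so with the block, a count added after the data were seen. The exception was Irf7, with an adjusted limma p of 0.063. Dim members, below the array median, could not be fitted in the alternative restricted to genes above it. The cause of these changes was not tested.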
